A study of Mus musculus with 55 samples.

Results

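Expression of 6 genes was followed: cholecystokinin (Cck) and gastrin (Gast), their receptors Cckar and Cckbr, and the markers of β cell dedifferentiation Aldh1a3 and Neurog3. They were chosen by name and are 6 of the 47937 genes counted in bulk RNA-seq of mouse pancreatic islets. All 16 bulk libraries were used, and the start sites were read from a chromatin segmentation made on wild-type islets. Every library came from whole islets of male mice on a C57B6/J background. The study describes culture after islet isolation, but direct lysis in its account of RNA extraction, so culture of these islets is not certain. At 8 weeks of age there were 3 wild-type libraries, 3 heterozygous libraries and 3 libraries labelled Eed -/- (βEedKO), and at 25 weeks 3, 2 and 2. In βEedKO mice floxed alleles of Eed, a core subunit of Polycomb repressive complex 2 (PRC2), were deleted by RIP-Cre, which a rat insulin promoter drives in β cells from late embryonic life, so the other cells of the islet keep Eed. Whether wild-type mice carried Cre is not stated in the sources used here. A library held islets of 1 or 2 animals, and of at least 4 for βEedKO at 25 weeks, so these last are pools.

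PRC2 places H3K27me3 on the start sites of developmental genes, and a start site that also carries H3K4me3 is called bivalent. Cck and gastrin are peptide hormones of the gut that share the same C-terminal active sequence. The receptor encoded by Cckar binds sulfated Cck and drives enzyme secretion in pancreatic acinar cells, while that encoded by Cckbr binds both hormones. Gastrin is made in the fetal pancreas and is not normally made in adult islets. Aldh1a3 makes retinoic acid from retinaldehyde and appears in failing β cells of diabetic animals. Neurog3 is the transcription factor that commits fetal pancreatic progenitors to the endocrine lineage.

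At its annotated start, Cck (ENSMUSG00000032532.6, chr9:121489824-121495694, minus strand, GRCm38) lay in state M of the segmentation. State M is one of 3 bivalent states, K, L and M. The Cck segment was 4800 bp long. The start of Gast (ENSMUSG00000017165.1, chr11:100334407-100336996, plus strand) lay in state E, a proximal regulatory state without Polycomb marks, in a segment of 4200 bp. That of Neurog3 (ENSMUSG00000044312.3, chr10:62133090-62134763, plus strand) lay in bivalent state L, in a segment of 1400 bp. These 3 starts are shown as sequence because they differ in state and in CG content, and CG-rich starts are those at which PRC2 is generally found. Each window holds 250 bases before and 50 after the start, read along the gene from RefSeq on GRCm38.p6, with every CG dinucleotide in capitals. RefSeq windows were found for 4 of the 6 genes.
Cck, chr9:121495645-121495944, minus strand: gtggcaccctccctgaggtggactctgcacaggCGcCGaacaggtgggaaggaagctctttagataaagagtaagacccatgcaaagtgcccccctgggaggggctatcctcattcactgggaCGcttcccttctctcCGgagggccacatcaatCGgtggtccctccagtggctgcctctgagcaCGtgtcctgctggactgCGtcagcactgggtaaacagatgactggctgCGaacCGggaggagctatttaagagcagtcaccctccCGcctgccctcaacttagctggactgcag
Gast, chr11:100334157-100334456, plus strand: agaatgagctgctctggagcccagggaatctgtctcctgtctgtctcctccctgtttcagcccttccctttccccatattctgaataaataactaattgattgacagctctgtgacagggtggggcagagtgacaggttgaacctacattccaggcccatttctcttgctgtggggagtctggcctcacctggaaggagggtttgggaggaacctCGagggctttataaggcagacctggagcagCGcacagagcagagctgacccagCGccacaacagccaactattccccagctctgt
Neurog3, chr10:62132840-62133139, plus strand: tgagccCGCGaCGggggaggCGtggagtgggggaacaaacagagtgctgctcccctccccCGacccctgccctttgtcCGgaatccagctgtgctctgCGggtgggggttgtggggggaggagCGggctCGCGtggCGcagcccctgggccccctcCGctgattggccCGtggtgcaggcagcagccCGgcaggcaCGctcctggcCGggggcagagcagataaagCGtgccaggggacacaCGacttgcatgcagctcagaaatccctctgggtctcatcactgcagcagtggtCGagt

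The Cck window held 10 CG dinucleotides with 59.3% G or C, the Gast window 3 with 54.0%, the Neurog3 window 19 with 68.3%, and the Cckbr window, in state M, 15 with 57.0%. The median over 32851 windows was 7, and as many CG as Gast were found in 76.7% of windows, against 43.5% for Cck, 34.6% for Cckbr and 28.1% for Neurog3. On either strand, the letters TATAA occurred in the Gast window, at 1 site that reads on both strands, and in 24.9% of all windows. The E-box letters CACGTG occurred 1 time in the Cck and 1 time in the Cckbr window, and in 7.15% of all. Neither the GC-box letters GGGCGG, found in 35.7% of windows, nor the cAMP response element letters TGACGTCA, found in 1.79%, were in any of the 4 windows.

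The remaining starts were also in bivalent states. Cckar (ENSMUSG00000029193.7, chr5:53697776-53707705, minus strand) started in state K, in a segment of 1600 bp, and its gene body was mostly Polycomb-repressed state N (56.4%). Cckbr (ENSMUSG00000030898.14, chr7:105425731-105470898, plus strand) started in state M, in a segment of 3400 bp. Aldh1a3 (ENSMUSG00000015134.15, chr7:66390890-66427517, minus strand) started in a segment of state L 200 bp long inside a stretch of state M, and 62.8% of its body was in Polycomb-repressed state O. Thus 5 of 6 genes had a bivalent start. The members were chosen with earlier results of these data known, and the study itself shows Cck as an example of state M. This count is therefore no independent evidence. Of 42903 gene starts in the segmentation 2.46% were in state K, 7.58% in L, 4.37% in M and 1.81% in E. When every annotated transcript start had to be bivalent the count was 4, because Aldh1a3 has transcript starts in states L, M and O, and when the state with the largest cover of the gene was used it was 2, Cck and Neurog3. The segmentation was made with replicates averaged, so it has no spread between animals, and it describes wild-type islets only.

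**Figure D1:**
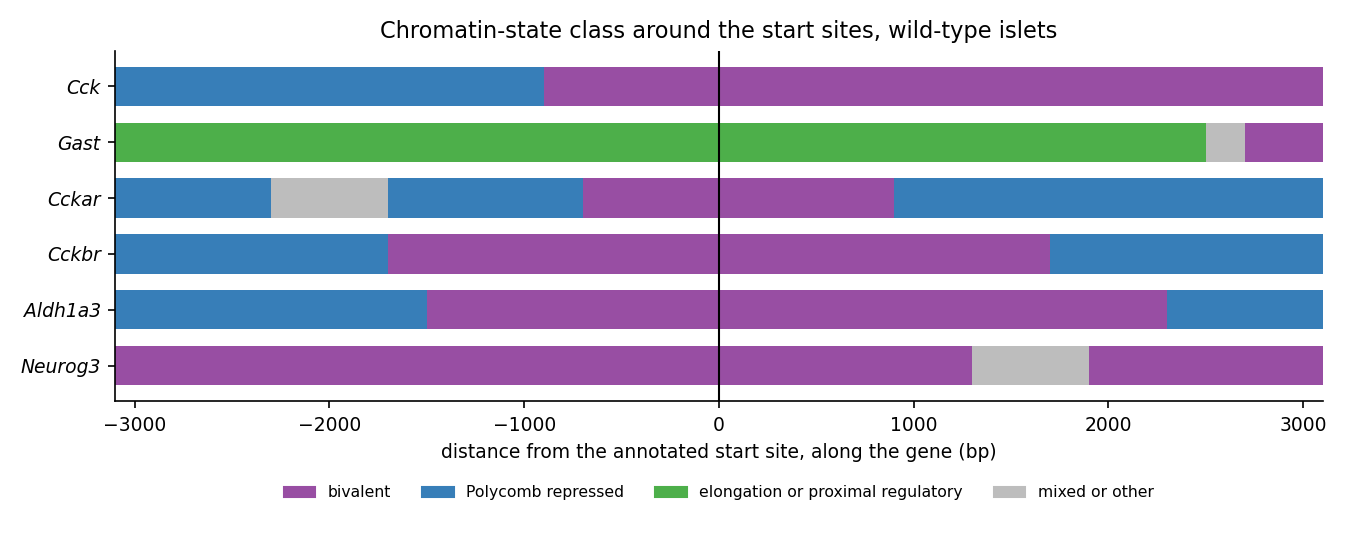
Chromatin-state class in bins of 200 bp around the annotated start of each gene in wild-type islets, against the distance from the start in bp along the gene. Bivalent bins (states K, L and M) cover the start of 5 of the 6 genes, and the Gast start lies in a stretch of elongation or proximal regulatory states.

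Total counts ranged from 4645393 in 25-week wild-type replicate 2 to 22925359, so that 3 reads, the limit that a count of 0 allows, correspond to between 0.121 and 0.654 CPM (reads of a gene scaled to library size, with TMM factors). Eed itself, counted over all its exons, had 19.3 to 33.1 CPM in wild-type, 16.3 to 20.5 in heterozygous and 13.4 to 15.6 in βEedKO libraries, and no βEedKO library reached a library of another genotype. The summed level of 5 β cell markers was 13909 to 17265 CPM in 25-week βEedKO libraries where wild-type libraries had 122605 to 219628, and 130551 to 214193 against 137214 to 206828 at 8 weeks. In bulk islets fewer cells of a type and less RNA per cell cannot be told apart. In the 25-week βEedKO libraries the 7 duct markers summed to 587 to 731 CPM, against 266 to 326 in wild type, the 6 mesenchyme markers to 240.2 to 357 against 86.9 to 123, and the 5 macrophage markers to 81.6 to 321 against 54.5 to 108. At 8 weeks the mesenchyme sum was 77.4 to 160.5 CPM in βEedKO against 41.7 to 68.4 in wild-type libraries, without overlap. The heterozygous libraries of that age had 53.8 to 206 CPM and overlapped both groups. Against wild type edgeR called 0 of the 6 genes (81 of all 18685), with 4 at an unadjusted p under 0.05 (1470 of all). DESeq2 called 3 of the 6, and 378 of all 19800 genes. The 5 α cell markers summed to 11835 to 12471 CPM in 25-week βEedKO libraries against 8244 to 9299 in wild type. Of the 5, edgeR called 1, Irx2 (6.6% of all genes), and Gcg differed by 0.44 ± 0.60 on the log2 scale (adjusted p = 0.754). The α sums of 8 weeks overlapped, at 13252 to 25915 CPM in βEedKO and 12443 to 30821 in wild-type libraries. The part of these markers in the results was not tested. The 12 acinar markers stood at 438364 CPM in 25-week βEedKO replicate 2 and at 13510 in replicate 3, the highest and the lowest of all libraries.

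Cck was the member with the largest difference between genotypes at 25 weeks. In 25-week βEedKO islets it had 73.7 CPM in replicate 2 (969 reads) and 124 CPM in replicate 3 (3068 reads), whereas the 3 wild-type libraries of the same age had 0 reads each. The 25-week heterozygous libraries had 0 and 1 read. Every 25-week βEedKO library was thus above all others of the series. At 8 weeks the βEedKO libraries had 0.617, 3.46 and 2.16 CPM (replicates 1, 4 and 5; 13, 69 and 25 reads), the wild-type libraries 1.90, 0.0581 and 0.159 CPM (replicates 1, 3 and 4; 30, 1 and 3 reads), and the heterozygous libraries 0.0697, 0 and 0 CPM. Wild-type replicate 1 lay within the range of the βEedKO libraries, so that these groups overlapped at 8 weeks, while βEedKO and heterozygous libraries did not.

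**Figure D2:**
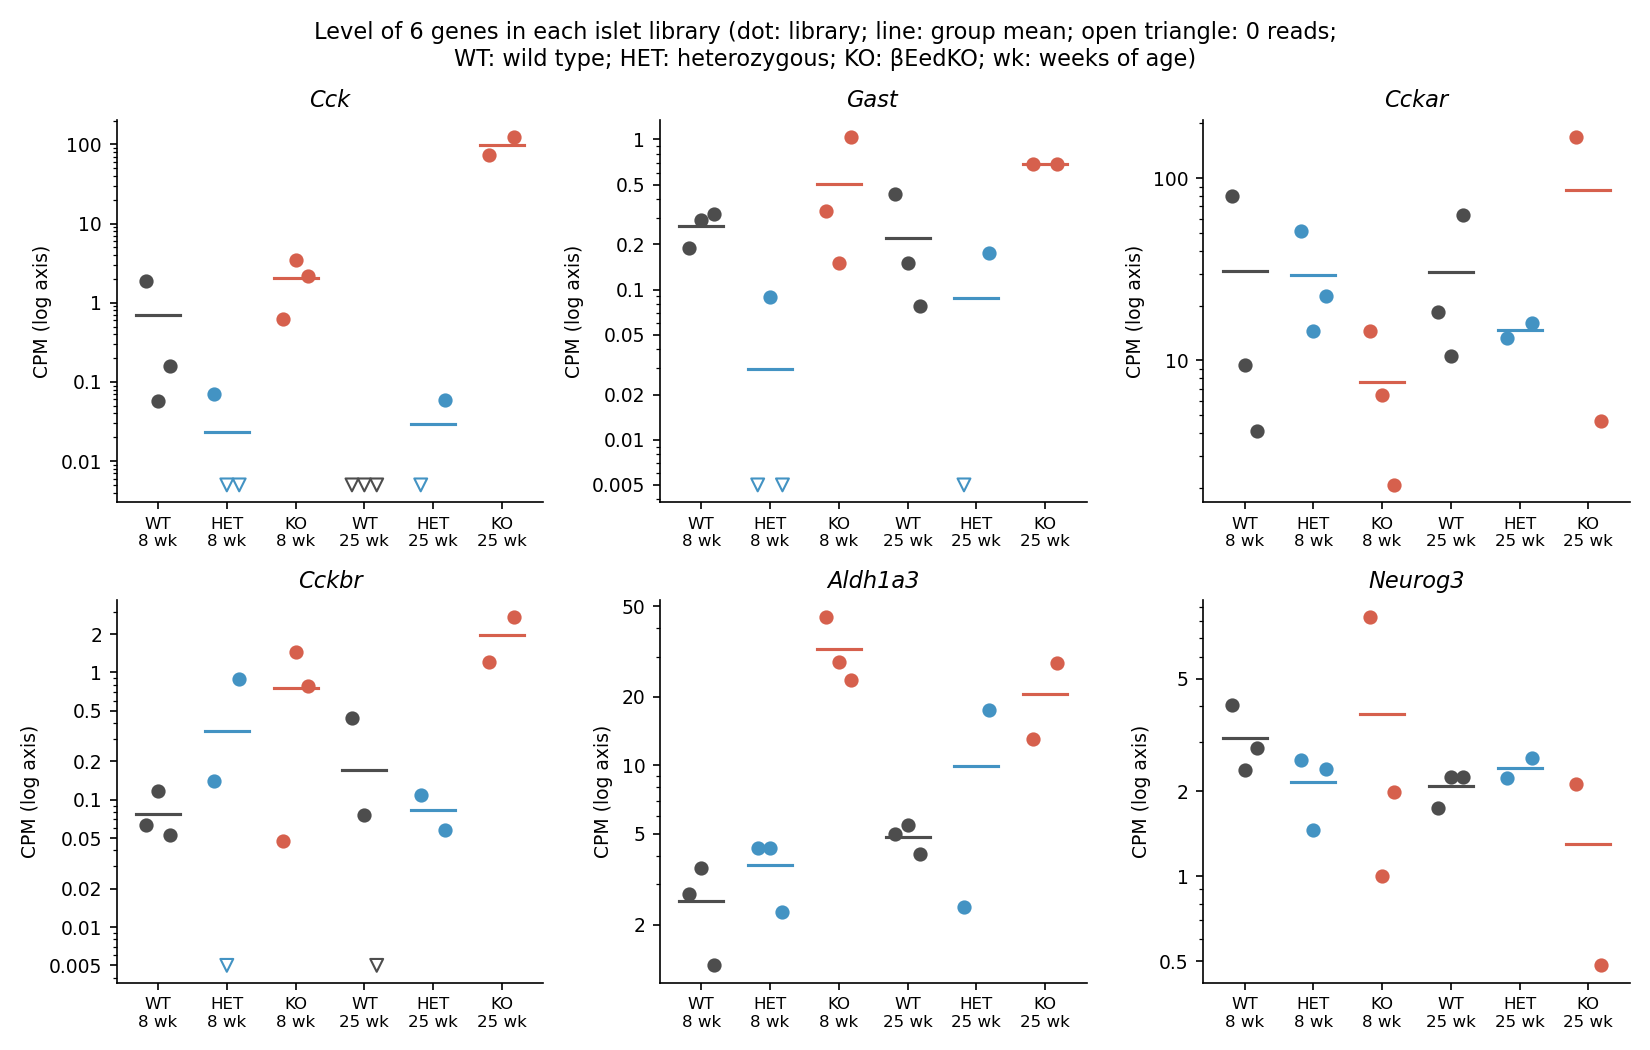
Level of each gene in CPM on log axes in the 16 islet libraries, by genotype and age in weeks. Dots are libraries, lines group means and open triangles libraries with 0 reads. Cck stood at 73.7 and 124 CPM in the 25-week βEedKO libraries and at 0 reads in all 25-week wild-type libraries, and Aldh1a3 was higher in every βEedKO library than in every wild-type library.

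At 25 weeks Cck rose in βEedKO islets, from 0 to 98.8 ± 35.4 CPM (SD, n = 2), which is at least 1014-fold over 3 reads in the whole wild-type group (edgeR quasi-likelihood test, adjusted p = 0.00476). The fitted log2 fold change of 13.56 ± 1.89 (SE) depends on the prior count given to the empty libraries. Cck met the filter on low counts in every βEedKO library, in 1 wild-type library of 8 weeks and in no other. It thus entered the test through the groups in which it is high. The call held when any of the 11 libraries of the fit was left out (adjusted p 0.00106 to 0.0302). With replicate numbers as a block it was lost (log2 fold change 13.72, adjusted p = 0.0560, the highest of 7 other settings, whose lowest was 7.83e-09). On a length scale Cck reached 75.7 CPM per kb of exon in 25-week βEedKO islets, rank 281 of 18767 genes, against 1.59 CPM per kb at 8 weeks.

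Against wild type at 8 weeks, Cck differed by 1.62 ± 0.99 on the log2 scale and did not pass (adjusted p = 0.792). Within βEedKO it rose by 5.51 ± 1.06 between 8 and 25 weeks (adjusted p = 0.0460), or 52.3-fold in pooled reads (95% counting interval 43.2 to 64.0). That call was the least stable of those on Cck, since 3 of 11 fits with a library left out passed. It was lost without 8-week βEedKO replicate 1 (adjusted p = 0.0568), 4 (0.126) or 5 (0.187), without 25-week βEedKO replicate 2 (0.162) or 3 (0.208), and likewise without wild-type replicate 4 at 8 weeks (0.0619) or 3 or 4 at 25 weeks (0.0616 and 0.0606). The difference between the genotype effects at the 2 ages was 11.95 ± 2.36 and did not pass (adjusted p = 0.127), but it passed in 4 of 7 other settings (adjusted p 0.000782 to 0.367 over all 7).

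Against heterozygous islets Cck was higher in βEedKO at each age. The log2 fold change was 11.43 ± 1.70 at 25 weeks (adjusted p = 0.00258), and 4037 reads against 1 gave a ratio of 3780 (counting interval 678 to 149326). This call held with each of the 16 libraries left out (adjusted p 0.000338 to 0.0452). At 8 weeks it was 6.25 ± 1.48 (adjusted p = 0.0394), and 107 reads against 1 gave a ratio of 104.7 (counting interval 18.4 to 4172). The 8-week call was lost without heterozygous replicate 1 (adjusted p = 0.104), 2 (0.125) or 3 (0.102) or βEedKO replicate 4 (0.130) or 5 (0.107). Leaving out a 25-week library also raised its adjusted p above 0.05, namely heterozygous replicate 1 (0.0577) or 2 (0.0581) or βEedKO replicate 2 (0.0531) or 3 (0.0524). The βEedKO libraries are shared with the comparisons against wild type, so these are not independent. Counting intervals cover counting error only.

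Gast stayed near the limit of detection in every group. Its reads numbered 3, 5 and 6 in 8-week wild-type libraries, 0, 2 and 0 in heterozygous and 7, 3 and 12 in βEedKO libraries. At 25 weeks there were 2, 2 and 1 in wild-type, 0 and 3 in heterozygous and 9 and 17 in βEedKO libraries. The 25-week βEedKO libraries (0.685 and 0.686 CPM) were above the wild-type libraries, the highest of which had 0.436 CPM from 2 reads in the shallowest library, and at 8 weeks the groups overlapped. Gast met the filter on low counts only through 1 βEedKO library at each age, and nothing is read from its direction there.

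Gast did not pass any test. Against wild type the log2 fold change was 0.85 ± 0.83 at 8 weeks (adjusted p = 0.900) and 1.79 ± 0.99 at 25 weeks (adjusted p = 0.352), where 26 reads against 5 gave a ratio of 4.22 (counting interval 1.60 to 14.1). Against heterozygous islets it was 3.50 ± 1.17 at 8 weeks (adjusted p = 0.0954), with 22 reads against 2 and a ratio of 10.8 (2.64 to 94.4), and 2.89 at 25 weeks (adjusted p = 0.187). The 8-week value passed without βEedKO replicate 1 (3.69, adjusted p = 0.0487). On the length scale Gast in 25-week βEedKO islets had 1.49 CPM per kb against 75.7 for Cck.

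Cckar, the receptor gene of acinar cells, ranged widely within groups. In 8-week wild-type libraries it had 79.9, 9.42 and 4.08 CPM, in heterozygous 51.2, 14.6 and 22.5, and in βEedKO 14.4, 6.47 and 2.08. At 25 weeks it had 18.5, 10.5 and 62.7 CPM in wild type, 13.3 and 16.0 in heterozygous and 168 and 4.68 in βEedKO. Wild-type and βEedKO groups overlapped at both ages, and the 2 βEedKO libraries of 25 weeks were the highest and among the lowest of all.

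The level of Cckar ran with that of the acinar markers. Over 16 libraries the Pearson correlation of the log2 levels was 0.916 and Spearman's rho 0.924 (permutation p = 2e-05 for each, two-sided, 100000 resamples, the smallest they can give). Without the 2 libraries farthest from the median of the acinar sum, 25-week βEedKO replicate 2 and wild-type replicate 4, r was 0.855 (n = 14, permutation p = 2e-04) and rho 0.890 (permutation p = 1e-04). Among the 6 wild-type libraries alone r was 0.955 (exact permutation p = 0.0139), and among the 5 heterozygous and the 5 βEedKO libraries 0.972 and 0.895. These were the only such relations computed with a test. The points share depth and scaling within a library.

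**Figure D3:**
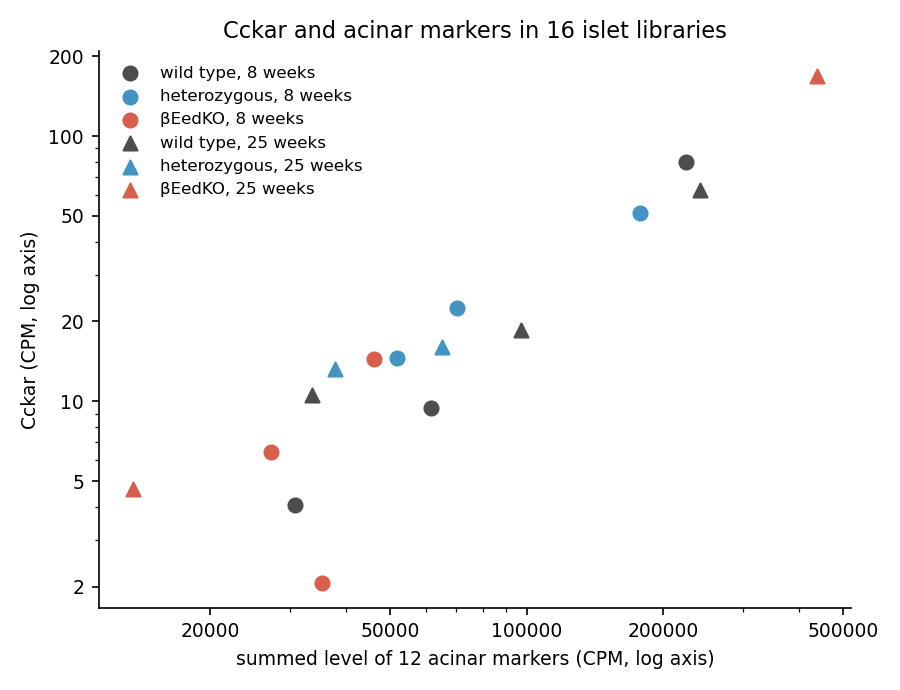
Level of Cckar against the summed level of 12 acinar marker genes, both in CPM on log axes, in the 16 libraries, coloured by genotype and shaped by age. The 2 βEedKO libraries of 25 weeks lie at the opposite ends of the acinar axis, at 13510 and 438364 CPM.

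Between genotypes Cckar did not pass. The log2 fold change against wild type was -1.98 ± 1.33 at 8 weeks (adjusted p = 0.808) and 1.45 ± 1.40 at 25 weeks (adjusted p = 0.635). Its sign rested on 1 library at each age, since it was 0.17 without 8-week wild-type replicate 1 and -2.79 without 25-week βEedKO replicate 2. Against heterozygous islets it was -1.92 at 8 weeks (adjusted p = 0.331) and 2.56 at 25 weeks (adjusted p = 0.324).

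Cckbr, the receptor gene shared by both hormones, had few reads. They numbered 1, 2 and 1 in 8-week wild-type, 2, 0 and 13 in heterozygous and 1, 29 and 9 in βEedKO libraries, and 2, 1 and 0, then 2 and 1, then 16 and 67 at 25 weeks. The 25-week βEedKO libraries (1.22 and 2.70 CPM) were above all wild-type and heterozygous libraries of that age, while at 8 weeks βEedKO replicate 1 (0.0474 CPM) was below every wild-type library. Cckbr met the filter in 2 libraries of each βEedKO group and in 1 heterozygous library, and in no wild-type library. It thus entered the tests against wild type through βEedKO libraries, where it is high, and nothing is read from its direction there.

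Its differences from wild type, 3.18 ± 1.23 at 8 weeks (adjusted p = 0.526) and 3.92 ± 1.37 at 25 weeks (adjusted p = 0.131) on the log2 scale, did not pass. In pooled reads the ratio was 9.62 at 8 weeks (39 reads against 4, counting interval 3.47 to 37.0) and 22.5 at 25 weeks (83 against 3, 7.43 to 111). The 25-week value passed without 8-week βEedKO replicate 1 (3.96, adjusted p = 0.0414) and with both other genotypes pooled as the control (4.20, adjusted p = 0.0366). Both carry the limit of the filter given above. Against heterozygous islets it was 1.17 at 8 weeks (adjusted p = 0.555) and 4.43 ± 1.70 at 25 weeks (adjusted p = 0.128).

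Aldh1a3 rose in βEedKO islets at both ages. At 8 weeks it had 44.6, 28.6 and 23.8 CPM in βEedKO libraries, against 2.73, 3.55 and 1.32 in wild-type and 4.32, 4.35 and 2.27 in heterozygous libraries. At 25 weeks it had 13.01 and 28.2 CPM in βEedKO libraries and 5.01, 5.49 and 4.10 in wild-type libraries. No βEedKO library overlapped the wild-type libraries of its age. The heterozygous libraries of 25 weeks had 2.40 and 17.6 CPM, and the second of these, replicate 2 with 301 reads, was above 25-week βEedKO replicate 2.

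Against wild type Aldh1a3 was 12.7-fold higher at 8 weeks, at 32.3 ± 10.9 CPM against 2.53 ± 1.12 (SD, n = 3 each; log2 fold change 3.67 ± 0.43, edgeR adjusted p = 0.00625). The call held with each of 11 libraries left out (adjusted p 0.00881 to 0.0353), but not with replicate numbers as a block (4.22, adjusted p = 0.0812, the highest of 7 other settings, whose lowest was 1.03e-13). At 25 weeks it was 4.07-fold higher, at 20.6 ± 10.8 CPM (n = 2) against 4.87 ± 0.708 (n = 3; log2 fold change 2.02 ± 0.44, adjusted p = 0.0228). This call was lost without βEedKO replicate 3 (1.37, adjusted p = 0.223) or wild-type replicate 2 (0.0536), 3 (0.0778) or 4 (0.0918). It was also lost with all 16 libraries in the fit (2.09, adjusted p = 0.0603) and with both other genotypes pooled as the control (1.57, adjusted p = 0.0858), and was kept with the block (1.85, adjusted p = 0.0374), over 7 settings with adjusted p from 0.000776 to 0.0858. The test of this effect between the ages gave -1.65 ± 0.60 (adjusted p = 0.496, not called), so a smaller effect at 25 weeks was not shown.

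Against heterozygous islets Aldh1a3 was higher by 3.14 ± 0.62 on the log2 scale at 8 weeks (edgeR adjusted p = 0.0166), a call lost without heterozygous replicate 1 (0.0637), 2 (0.0574) or 3 (0.0637). At 25 weeks the difference was 1.05 ± 0.70 (adjusted p = 0.385), and 3.09 without heterozygous replicate 2 (adjusted p = 0.0540). On the length scale Aldh1a3 rose from 0.549 to 7.01 CPM per kb at 8 weeks, from the 26.3 to the 71.9 percentile of 18767 genes.

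Neurog3 was read at a low level in all libraries, and none of its differences passed. At 8 weeks it had 4.06, 2.38 and 2.86 CPM in wild-type, 2.58, 1.46 and 2.41 in heterozygous and 8.26, 1.00 and 1.99 in βEedKO libraries. At 25 weeks it had 1.74, 2.26 and 2.24 CPM in wild-type, 2.23 and 2.63 in heterozygous and 2.13 and 0.484 in βEedKO libraries. Wild-type and βEedKO groups overlapped at both ages, and 8-week βEedKO replicate 1, with 174 reads, stood apart from the rest.

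The log2 fold change of Neurog3 against wild type was 0.27 ± 0.73 at 8 weeks (adjusted p = 0.974) and -0.75 ± 0.87 at 25 weeks (adjusted p = 0.699), and without 8-week βEedKO replicate 1 the first was -1.05. Against heterozygous islets it was 0.81 at 8 weeks (adjusted p = 0.452) and -0.92 at 25 weeks (adjusted p = 0.547). Of the exons of Neurog3, 273 bp lie over Fam241b on the opposite strand, which had 132 to 528 reads per library. The library kit marked no strand, so reads in the overlap cannot be told apart. In CPM Fam241b was highest in 25-week wild-type replicate 2 (28.8), followed by 8-week βEedKO replicate 1 (25.1), the library in which Neurog3 was highest.

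**Figure D4:**
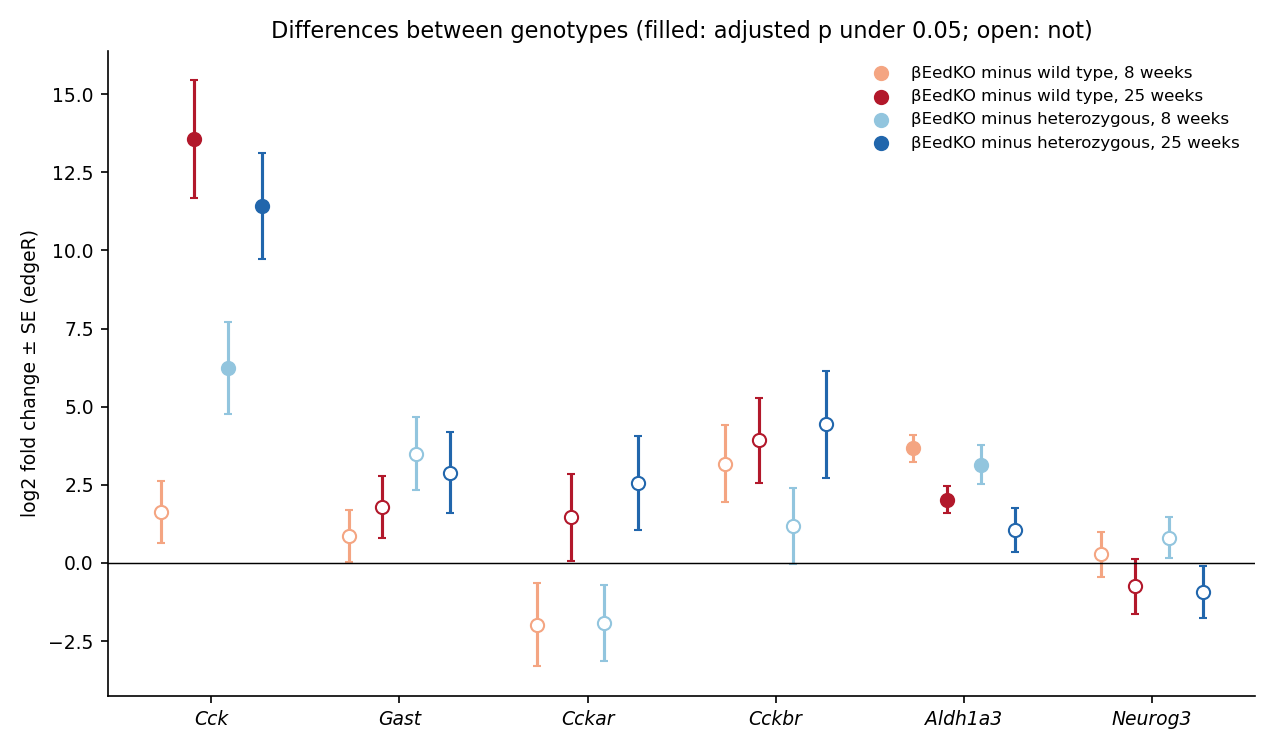
Log2 fold change of each gene in βEedKO islets against wild-type or heterozygous islets at 8 and 25 weeks, with bars of 1 SE from the edgeR fits. Filled points passed at an adjusted p under 0.05 and are those of Cck and Aldh1a3. The Cck values at 25 weeks rest on control groups of 0 or 1 read.

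Read over the members, 1 of 6 passed against wild type at 8 weeks, Aldh1a3, where 0.434% of all tested genes passed, and 2 of 6 at 25 weeks, Cck and Aldh1a3, where 6.6% passed. Against heterozygous islets 2 of 6 passed at 8 weeks (4.74% of all genes) and 1 of 6, Cck, at 25 weeks (8.36%). No member passed for the difference between the genotype effects (0.198% of all genes), with 2 members at an unadjusted p under 0.05 in edgeR and 1 called by DESeq2. Between the ages within βEedKO islets only Cck of the 6 passed, where 1.5% of all genes did. Cck met the filter on low counts through βEedKO libraries and 1 wild-type library of 8 weeks. Its calls against the other genotypes carry that limit in these counts.

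Between wild-type islets of 25 and 8 weeks no member passed, and 0% of all genes did by edgeR, with 1898 genes at an unadjusted p under 0.05 and 143 called by DESeq2. Aldh1a3, at 0.95 ± 0.41 on the log2 scale (adjusted p = 0.489), and Cck had unadjusted p under 0.05, and DESeq2 called 0 members. Between heterozygous and wild-type islets no member passed. At 8 weeks 0% of all genes passed by edgeR (2743 at an unadjusted p under 0.05, 400 by DESeq2), and Gast (-2.65 ± 1.18, adjusted p = 0.327) and Cck (-4.67 ± 1.62, adjusted p = 0.264) were the 2 members with an unadjusted p under 0.05. At 25 weeks 0% passed (210 at an unadjusted p under 0.05, 2 by DESeq2) and 0 members had an unadjusted p under 0.05. DESeq2 called 0 members at each age.

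Ordered by group mean, Cck, Gast, Cckar and Cckbr were each highest in 25-week βEedKO islets, and Aldh1a3 and Neurog3 in 8-week βEedKO islets. For Cckar this place rested on 1 library (168 against 4.68 CPM), and so did that of Neurog3 (8.26 against 1.00 and 1.99 CPM). Only Cck had neighbours in this order that did not overlap, namely βEedKO at 25 weeks above βEedKO at 8 weeks. The shares of all genes with such an order or gap were not computed, so nothing is read from them. For each member the genes with the most similar pattern were found by Pearson correlation of log2 CPM over the 16 libraries, which share genotype, age and depth. For Cck these were Dscaml1 (r = 0.969), Foxl1 (0.967) and Pax1 (0.965), of which Foxl1 and Pax1 are transcription factor genes of embryonic development. Spearman's rho with Cck was 0.894, 0.940 and 0.742 for these genes. The Pearson values lean on the 25-week βEedKO libraries, in which Cck was far above all others. For Aldh1a3 they were Spock1 (0.939), which encodes a secreted proteoglycan, Nrk (0.919), which encodes a kinase, and Gm42517 (0.889). For Cckar they were Rbpjl (0.970), a transcription factor of acinar cells and one of the 12 acinar markers, Nat8f1 (0.967) and Tead2 (0.963).

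For the sparse genes likeness was lower. Cckbr was most like Vash2 (r = 0.877) and Ccr1 (0.875), Gast most like Parp11 (0.865), Gm9602 (0.854) and Gm42715 (0.846), and Neurog3 most like Slc48a1 (0.825), Gm42929 (0.823) and Gm3807 (0.806). Spearman's rho was lower for these last, at 0.618, 0.374 and 0.556. Among the members themselves the highest value was that of Cck and Cckbr (0.726), followed by Gast and Cck (0.647) and by Aldh1a3 and Cck (0.579). Cck and its acinar receptor gene Cckar had r = 0.025.

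For the lists that follow, the share of all tested genes that passed against wild type was 0.434% at 8 weeks. At 25 weeks it was 6.6%, with 4.58% higher and 2.02% lower. In a list of 17 genes for peptide hormones and serotonin synthesis of the gut, which holds Cck and Gast, 16 genes were tested. At 8 weeks 1 of these passed against wild type, the enkephalin precursor gene Penk, which rose by 4.07 ± 0.64 on the log2 scale (edgeR adjusted p = 0.0271). At 25 weeks 4 passed, Cck and 3 genes that are no members, all higher in βEedKO. They were Cck, Tph1, the enzyme of serotonin synthesis (8.58 ± 1.35, adjusted p = 0.00471), Penk (3.83 ± 0.68, adjusted p = 0.00871) and the ghrelin gene Ghrl (2.19 ± 0.58, adjusted p = 0.0494). With replicate numbers as a block 2 passed at 25 weeks, Ghrl and Penk.

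Of 11 genes that process and modify prohormones, Qpct, whose product forms N-terminal pyroglutamate on peptides, rose by 2.49 ± 0.30 at 8 weeks (adjusted p = 0.00625) and 4.18 ± 0.35 at 25 weeks (adjusted p = 0.000172). The prohormone convertase gene Pcsk2 fell by 1.39 at 25 weeks (adjusted p = 0.0485). With replicate numbers as a block the Pcsk2 call was lost and Pcsk1, the other main convertase gene, was called lower at 25 weeks. DESeq2 also called Pcsk1 lower at both ages and Tpst1 lower at 25 weeks. Among 15 genes of signalling below the Cck receptors none passed at 8 weeks (0 at an unadjusted p under 0.05 in edgeR, 0 by DESeq2) and Prkca, a protein kinase C gene, fell by 1.08 at 25 weeks (adjusted p = 0.0206). Of 21 tested genes of retinoic acid synthesis, binding and response, Aldh1a3 was the only one that passed against wild type at either age.

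Of 20 tested genes of endocrine progenitors and their differentiation, Neurog3 included, none passed against wild type at 8 weeks (1 at an unadjusted p under 0.05 in edgeR, 0 by DESeq2). At 25 weeks Sox9, a progenitor and duct factor, rose by 2.98 ± 0.62 (adjusted p = 0.0189) and Fev, which follows Neurog3 in development, by 2.94 ± 0.69 (adjusted p = 0.0316), while Pax6 (-1.97 ± 0.29, adjusted p = 0.00347) and Isl1 (-1.58 ± 0.40, adjusted p = 0.0423) fell, both factors of mature endocrine cells. With replicate numbers as a block Neurod1 and Rfx6 were called lower as well. Sox9 is also one of the 7 duct markers given above, 3 of which were higher at 25 weeks (Krt19, Spp1 and Sox9), or 2 with the block, without Krt19. Against heterozygous islets of 8 weeks 1 of the 20 genes was called, Sox9, which was higher (4.74% of all genes passed). The study, by contrast, reports that Sox9 and Neurog3 were not reactivated in βEedKO islets, from data it does not show. Of 7 genes known from diabetic β cells, Aldh1a3 passed at 8 weeks, and Cck, Aldh1a3 and Gc, the vitamin D binding protein gene (1.99 ± 0.37, adjusted p = 0.0107), at 25 weeks, against 5 called by DESeq2. With the block Aass was called higher in place of Cck.

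The mature β cell genes moved the other way from Cck and Aldh1a3 at 25 weeks. Of 8 genes, a list taken from the study, which also applies it to βEedKO islets, so that its direction is no independent evidence, 6 fell at 25 weeks, among them Ucn3 (-5.26 ± 0.39, adjusted p = 0.00017), Pax6, Nkx6-1 (-3.48 ± 0.59, adjusted p = 0.00637) and Pdx1 (-1.99 ± 0.34, adjusted p = 0.00741). At 8 weeks none of the 8 passed against wild type (0 at an unadjusted p under 0.05 in edgeR, 0 by DESeq2, and 3 at an unadjusted p under 0.05 with the block). Against heterozygous islets of 8 weeks, however, Ucn3 was called lower by both edgeR and DESeq2. With replicate numbers as a block no gene of the whole table passed against wild type at 8 weeks, with 1126 at an unadjusted p under 0.05. None of the 8-week calls against wild type given here was thus kept in that fit. Against heterozygous islets of 8 weeks 1 gene of the whole table passed with the block.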

How the data were processed

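Bulk RNA-seq of whole islets (16 libraries, 6 groups taken from the labels) and a segmentation of wild-type islet chromatin were analysed. The deposited values are raw counts, whole reads per gene and library, which the authors made with TopHat2 2.0.13 on GRCm38 and featureCounts of Subread 1.5.0-p1 on Gencode M9, from a kit that marks no strand. The strand setting is not given in the sources used here. The segmentation was deposited by the authors as EpicSeg state letters in bins of 200 bp, with no level. No count column was left unused (0). Single-cell and ChIP-seq data of the series are not used here.

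These counts were tested with edgeR 4.0.16 in R 4.3.3 (TMM, filterByExpr by group, quasi-likelihood test, Benjamini-Hochberg adjustment over all tested genes, calls at adjusted p under 0.05). Wild type against βEedKO and the ages were tested in a fit of 11 libraries (18685 genes), and comparisons with heterozygous libraries in a fit of all 16 (18828 genes). Standard errors are the log2 fold change over the square root of F. DESeq2 1.42.0 and the other settings are given in the closing section. Scripts were tested on simulated data. CPM for display were scaled over all 16 libraries, and a prior count of 2 was used for log2 CPM. Names and coordinates came from a later Gencode release on GRCm38, which held 47224 of the 47937 counted genes.

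The members, lists and settings were chosen with earlier results of these data known. Named are the members, the 3 genes most correlated with each, and up to 4 called genes per list and direction, except 1 correlated gene not reported here. Groups are separate libraries, but which animals they came from is not given, so p-values measure the spread between these libraries. No source used here ties replicate numbers to litters or batches. Deviations from the group mean over 18828 genes were correlated between same-numbered wild-type and βEedKO libraries of an age (r = 0.457 and 0.163 for numbers 1 and 4 at 8 weeks, 0.176 and 0.255 for 2 and 3 at 25 weeks), so a fit with the number as a block is given where it changes a call. In that fit libraries without a partner add nothing to the genotype difference. Libraries of different numbers could correlate as well: at 8 weeks βEedKO replicate 5 had r = 0.450 with wild-type replicate 3, above the value of number 4. At 25 weeks the 2 βEedKO libraries deviate from their mean by mirrored amounts. Each value there thus has an equal one of opposite sign with the other βEedKO library (-0.176 and -0.255), and says little on pairing. Floors and intervals (95%) cover counting error only.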

Additional observations from a re-analysis of the deposited data

How the results depend on the processing

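Over 9 comparisons and 6 genes, 274 of the values recomputed under another scaling, filter, test, set of libraries, control or block kept their direction and their side of the threshold, as did 657 of those with a library left out. Counts of members that passed changed as follows, and the cause was not tested. For the difference between the genotype effects, 1 member (Cck) passed against 0 with no filter on low counts, with the DESeq2 Wald test, with all 16 libraries in the fit and with both other genotypes pooled as control. Against wild type at 25 weeks, 1 member (Cck) passed against 2 with all 16 libraries in the fit. With a library left out the count ranged from 1 to 3 against wild type at 25 weeks, from 0 to 1 between the ages of βEedKO and from 0 to 3 for βEedKO against heterozygous at 8 weeks. With the replicate number as a block it was 0 against wild type at 8 weeks and 1 (Aldh1a3) at 25 weeks. The heterozygous libraries share only a number with the others (same-number correlation with wild type 0.161, 0.0800 and 0.0923, with βEedKO -0.0037 and -0.015), and there the block left 0 members called at 8 weeks (Aldh1a3 adjusted p = 0.173, Cck 0.530) and 0 at 25 weeks (Cck 0.0794) against heterozygous. The block changed no other call of a member. Bivalent starts numbered 4 by every annotated transcript start and 2 by the largest cover of the gene, against 5.

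Signs turned for values that had not passed. With the block these were Neurog3 (-0.19) and Gast (-0.12) against wild type at 8 weeks, Cckar (0.51) for heterozygous against wild type at 8 weeks, Neurog3 (-0.21) for the same at 25 weeks, Cckbr (-0.0701) for βEedKO against heterozygous at 8 weeks and Aldh1a3 (-0.19) at 25 weeks. Cckar turned to 0.0454 for heterozygous against wild type at 8 weeks with library size alone and to -0.0074 between the wild-type ages with no filter. With a library left out, values ran from -1.05 to 0.72 for Neurog3 and from -2.81 to 0.17 for Cckar against wild type at 8 weeks, and from -2.79 to 2.54 for Cckar at 25 weeks. For the difference of effects they ran from -2.44 to 0.26 (Neurog3), -0.80 to 4.53 (Cckar) and -0.0410 to 2.20 (Cckbr), and within βEedKO from -0.0196 to 0.43 (Gast) and -0.78 to 4.42 (Cckar). Between wild-type ages they ran from -1.07 to 2.17 (Cckar) and -0.90 to 1.34 (Cckbr). For heterozygous against wild type they ran from -0.75 to 2.07 (Cckar) and -0.37 to 2.62 (Cckbr) at 8 weeks, and from -1.01 to 1.86 (Aldh1a3), -1.49 to 0.0217 (Cckar) and -1.21 to 1.01 (Cckbr) at 25 weeks. For βEedKO against heterozygous they ran from -0.53 to 1.27 (Neurog3, 8 weeks) and -1.65 to 3.44 (Cckar, 25 weeks).

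Counts over all genes moved more. Against wild type at 8 weeks 81 genes passed, 137 with no filter, 378 with DESeq2, 503 with pooled controls and 0 with the block. At 25 weeks 1234 passed, 2049 with DESeq2 and 2649 with pooled controls. With library size alone 884 passed at 25 weeks, 91.1% of them higher against 69.4%, and the median over all genes shifted to 0.20 at 8 weeks and 0.27 at 25 weeks. For the difference of effects 37 passed, and 11, 73, 333, 2, 90 and 204 with library size alone, no filter, DESeq2, the block, all 16 libraries and pooled controls. Between βEedKO ages 281 passed, 168 with library size alone and 939 with DESeq2. For βEedKO against heterozygous 892 passed at 8 weeks and 1574 at 25 weeks, and with library size alone 505 and 913, with DESeq2 2253 and 2657, and with the block 1 and 429. Where 0 genes passed, no filter gave 8 between wild-type ages and 5 for heterozygous at 8 weeks, and library size alone gave 1 between wild-type ages.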
